A study of Mus musculus with 16 samples.

Results

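Nodal, Lefty1, Lefty2, Tdgf1, Acvr2b, Smad3, Smad7 and Skil are 8 genes of the Nodal, activin and TGF-beta signalling pathway, and the OCT4 peaks around them in mouse embryonic stem (ES) cells are described here. A peak, a stretch of the genome where fragments precipitated with an OCT4 antibody pile up, was counted for a gene if its midpoint lay in the gene body or within 50 kb of any annotated transcript start of the gene. This gave 29 of the 26704 OCT4 peaks, 3 of which were counted for both Lefty1 and Lefty2. The 2TS22C ES cell line carries SOX2 only as a Tet-Off transgene, and it was grown in serum with LIF, the GSK3 inhibitor CHIR99021 and the MEK inhibitor PD184352. Cells were either left untreated (SOX2 ON) or given doxycycline for 26 h (SOX2 OFF), and each state was profiled by 2 of the 4 OCT4 ChIP-seq libraries in a series of 16 libraries and 8 groups. The line is a single engineered line, and SOX2 is not fully gone at this time of doxycycline treatment. The other libraries profiled BRG1 and H3K27ac, partly in the OCT4 Tet-Off line ZHBTc4, and were not analysed here. One merged peak list was used, which gives a chromosome, a start and an end, with no peak height and no library, so the values below carry no replicate error and no depth, and SOX2 ON and SOX2 OFF could not be compared.

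Nodal is a secreted ligand of the TGF-beta family. It binds activin receptors such as the type II receptor ACVR2B together with the co-receptor CRIPTO, the product of Tdgf1, and signals through SMAD2 and SMAD3, which enter the nucleus with SMAD4 and reach DNA with partners such as FOXH1. LEFTY1 and LEFTY2 are secreted antagonists of Nodal, SMAD7 blocks activated receptors, and SnoN, the product of Skil, is a nuclear repressor of SMAD complexes, so that several targets of the pathway restrain it. In ES cells OCT4 often binds next to SOX2 on a composite motif, and Nodal, the Lefty genes and Tdgf1 are known to be expressed in these cells.

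The sequences printed first come from 6 of the genes and are examples of sequence in OCT4 peaks at these genes. Each shows the peak with the best composite motif, or the peak nearest to the start where no match was found. This choice favours composite matches, which were found in 4 of the 29 peaks, so the examples are not typical of them. The best match in the Lefty2 window is in the peak it shares with Lefty1, and no Smad7 sequence is printed. The composite motif searched here was the SOX part CATTGTT followed with no gap by the octamer ATGCAAAT, on either strand, with at most 3 mismatches over its 15 bases. Each stretch is the plus strand of the GRCm38 genome from 5′ to 3′, at most 300 bases long and kept inside the peak. It was centred on the marked matches as far as the peak allowed, and on the peak midpoint where nothing is marked. The place of a match within a printed stretch is thus set by this choice. Capitals mark the composite match, which in all 4 cases lay on the minus strand, and in the Nodal peak they mark a SOX core and a short SMAD box. The Acvr2b stretch holds none of these and has no capitals.
Nodal chr10:61416823-61417122: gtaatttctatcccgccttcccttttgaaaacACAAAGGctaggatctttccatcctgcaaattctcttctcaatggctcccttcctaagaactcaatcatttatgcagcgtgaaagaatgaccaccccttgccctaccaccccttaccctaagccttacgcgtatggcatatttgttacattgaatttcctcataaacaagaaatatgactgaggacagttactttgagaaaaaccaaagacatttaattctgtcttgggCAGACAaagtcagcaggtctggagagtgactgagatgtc
Lefty1 chr1:180933727-180934026: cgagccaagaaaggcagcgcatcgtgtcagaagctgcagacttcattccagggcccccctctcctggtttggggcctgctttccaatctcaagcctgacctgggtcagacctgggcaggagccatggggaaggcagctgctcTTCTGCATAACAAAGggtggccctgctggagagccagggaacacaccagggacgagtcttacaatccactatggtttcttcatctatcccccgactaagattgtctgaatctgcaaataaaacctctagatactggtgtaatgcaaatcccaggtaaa
Tdgf1 chr9:110954781-110955032: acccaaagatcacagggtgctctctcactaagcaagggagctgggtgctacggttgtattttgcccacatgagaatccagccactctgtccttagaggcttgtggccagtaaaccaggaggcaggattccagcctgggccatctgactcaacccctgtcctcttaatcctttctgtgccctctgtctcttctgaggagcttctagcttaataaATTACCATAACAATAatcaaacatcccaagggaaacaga
Acvr2b chr9:119375546-119375845: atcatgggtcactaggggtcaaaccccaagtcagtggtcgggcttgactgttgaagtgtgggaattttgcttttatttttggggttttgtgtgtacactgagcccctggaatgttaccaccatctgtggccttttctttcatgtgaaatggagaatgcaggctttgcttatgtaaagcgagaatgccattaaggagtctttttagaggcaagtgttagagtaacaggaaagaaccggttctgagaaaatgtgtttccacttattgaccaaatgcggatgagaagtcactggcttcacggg
Smad3 chr9:63797393-63797692: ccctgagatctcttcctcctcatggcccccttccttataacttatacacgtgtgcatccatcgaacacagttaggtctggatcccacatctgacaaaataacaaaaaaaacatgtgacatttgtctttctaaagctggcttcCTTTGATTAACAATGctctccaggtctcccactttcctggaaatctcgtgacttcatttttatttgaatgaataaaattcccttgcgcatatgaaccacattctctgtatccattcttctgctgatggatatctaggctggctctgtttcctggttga
Skil chr3:31089414-31089713: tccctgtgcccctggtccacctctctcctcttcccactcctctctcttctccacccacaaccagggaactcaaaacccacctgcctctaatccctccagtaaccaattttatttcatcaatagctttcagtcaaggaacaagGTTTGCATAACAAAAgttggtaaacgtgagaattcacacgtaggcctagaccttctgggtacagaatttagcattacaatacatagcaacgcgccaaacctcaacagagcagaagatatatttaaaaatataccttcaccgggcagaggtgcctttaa

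The composite matches at Lefty1, Skil, Smad3 and Tdgf1 each had 3 mismatches and differed from the motif in different ways. Positions are counted from 1 at the 5′ end of the SOX part, with the motif's base first and the genome's base last. The Lefty1 match (chr1:180933869-180933883) carried A2T, A13G and T15A. The Skil match (chr3:31089556-31089570) carried C1T, A2T and T15C, so that its octamer was intact but for the last base. At Smad3 (chr9:63797535-63797549) the SOX part was intact and T9A, G10T and T15G fell in the octamer. The Tdgf1 match (chr9:110954994-110955008) carried C1T, C11G and A12T. A match with at most 2 mismatches, found in 2.21% of all peaks, was not present in any of the 29 peaks.

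A second set of sequences is shown because 2 peaks at the Lefty genes held the FOXH1 core TGTGGATT at 2 places, a pattern singled out after its values were seen. Capitals mark the cores, which read AATCCACA where they lie on the minus strand. Both stretches are the plus strand of GRCm38, at most 300 bases long.
Lefty2 chr1:180888789-180889088: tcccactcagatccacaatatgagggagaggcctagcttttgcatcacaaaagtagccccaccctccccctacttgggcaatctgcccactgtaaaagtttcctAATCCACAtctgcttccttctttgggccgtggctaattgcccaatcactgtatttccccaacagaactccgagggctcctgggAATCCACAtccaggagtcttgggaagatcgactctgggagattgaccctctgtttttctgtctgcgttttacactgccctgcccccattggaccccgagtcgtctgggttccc
Lefty1 chr1:180924724-180925023: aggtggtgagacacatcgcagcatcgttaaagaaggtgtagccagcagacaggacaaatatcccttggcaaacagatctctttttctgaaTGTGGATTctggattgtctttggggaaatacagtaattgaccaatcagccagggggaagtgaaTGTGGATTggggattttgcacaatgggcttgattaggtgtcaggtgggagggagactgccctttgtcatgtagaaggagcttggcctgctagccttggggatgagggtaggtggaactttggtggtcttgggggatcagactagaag

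OCT4 peaks were present at each of the 8 genes, whereas 73.0% of 21938 protein-coding genes had at least 1 peak under the same rule. Nodal, Lefty1, Tdgf1 and Smad3 had 5 peaks each, a number that 10.4% of protein-coding genes reached. Lefty2 had 4 peaks, a number reached by 18.2% of genes. Smad7 and Skil had 3, a number reached by 31.1% of genes, and Acvr2b had 2, reached by 50.2%. The median was 4.5 peaks for the 8 genes and 2 for all protein-coding genes. These ranks depended on the window. Within 10 kb, Nodal and Lefty1 had 2 peaks each, reached by 19.1% of genes, Tdgf1 had 3, reached by 8.46%, Smad3 and Lefty2 had 1, reached by 44.3%, and Acvr2b had 0. Within 100 kb, Nodal, Lefty1, Lefty2, Tdgf1, Smad3 and Smad7 each had 6 peaks, reached by 20.5% of genes. Skil, with 2 peaks within 10 kb and 7 within 100 kb, went from 19.1% to 13.2%. Long genes have larger windows, and per 100 kb of window the order changed. Nodal had 5.00 peaks per 100 kb, Tdgf1 4.94, Lefty1 4.91 and Lefty2 3.95, densities reached by 3.20%, 3.92%, 4.00% and 8.32% of protein-coding genes. Smad3, whose gene body is the longest of the 8, had 2.61 peaks per 100 kb, reached by 22.4% of genes, and Acvr2b had 1.53, reached by 43.6%. The 8 genes were chosen for their roles and with earlier results of these data known, so these ranks are a description.

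**Figure D1:**
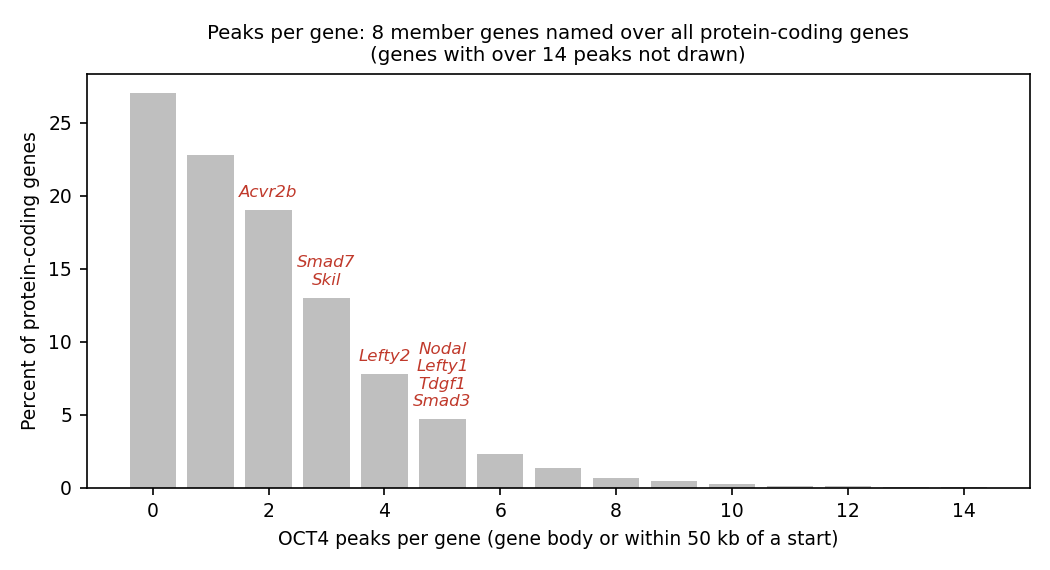
Percent of protein-coding genes (y axis) with each number of OCT4 peaks in the gene body or within 50 kb of a start (x axis), with the 8 genes written over the bar of their own number. Nodal, Lefty1, Tdgf1 and Smad3 stand at 5 peaks and Acvr2b stands at 2, the median of all protein-coding genes.

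All 29 peaks were intergenic or intronic by midpoint and few lay at the genes' own starts. Midpoints of 16 peaks were intergenic and those of 13 were in introns, and no peak met an annotated UTR. No peak met the window from 250 bp before to 50 bp after the annotated starts of these 8 genes, and 10.2% of protein-coding genes had a peak there. With 8 genes a count of 0 is near that share and does not set them apart. The peak nearest to Tdgf1 began just beyond the window. For 16 of the 29 peaks the nearest protein-coding start belonged to one of the 8 genes, and the other 13 were nearer to the start of a neighbour. Peaks within 1 kb of any protein-coding start numbered 8 of 29 (27.6%, 95% Wilson interval 14.7 to 45.7%), against 13.8% of all peaks, and the rule itself takes peaks near genes. Of those 8, 3 lay at Smad7, Skil and Tdgf1, and 5 lay at the starts of the neighbours Sde2, Tmem63a, Pald1, Lrrc2 and Xylb. All such intervals here cover counting error only.

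The peaks lay mainly upstream. Relative to the most upstream annotated start, 24 of 31 pairs of a gene and a peak within 50 kb (77.4%) had the peak upstream, against 52.2% of 34792 such pairs for all protein-coding genes. All 5 peaks of Tdgf1, all 3 of Smad7 and both of Acvr2b were upstream. Many upstream peaks were nearer to the start of a neighbouring gene. Tdgf1 had the nearest protein-coding start for 2 of its 5 peaks and Acvr2b for 0 of its 2. Some upstream peaks of Nodal, Lefty2 and Skil were also nearer to neighbours. Whether the placement reflects the neighbours was not tested. Pairs are not independent, because the Lefty genes share peaks, and without these 2 genes the share was 86.4%.

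**Figure D2:**
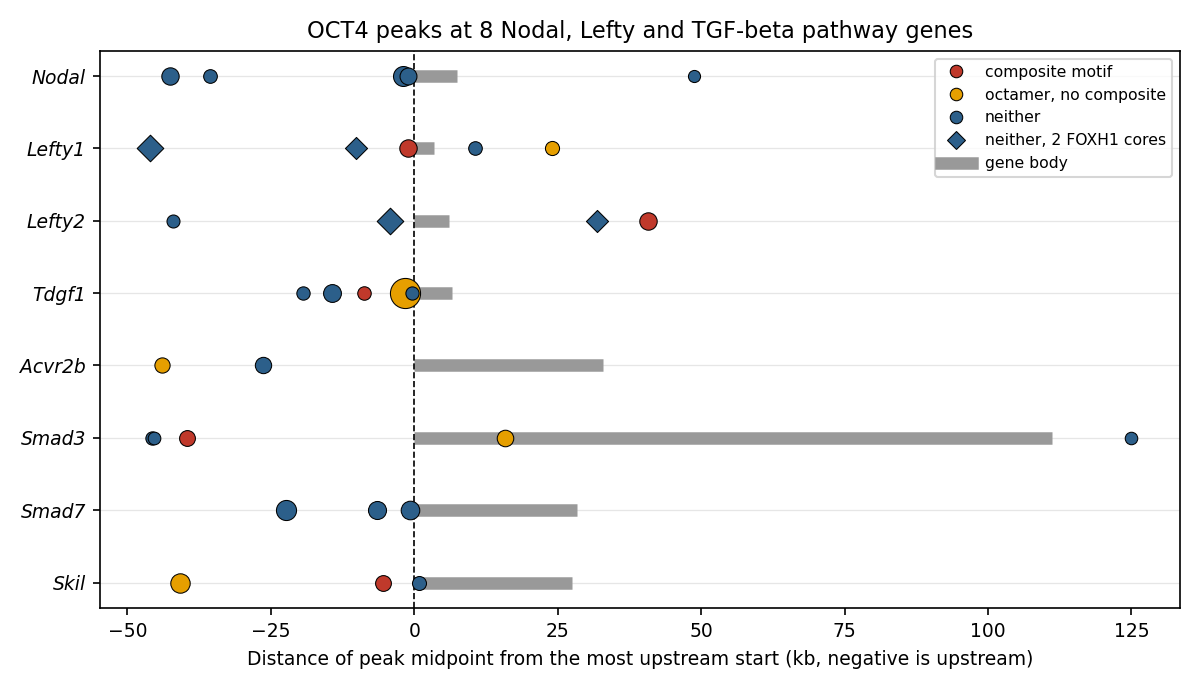
Distance of each peak midpoint from the most upstream annotated start of the gene (x axis, kb, negative upstream), with 1 row per gene, the gene body as a grey bar and symbol area in proportion to peak width. Red symbols hold a composite motif, orange ones an octamer and no composite motif, blue ones neither, and diamonds hold 2 FOXH1 cores. Peaks gather to the left of the start at Nodal, Tdgf1, Smad7 and Acvr2b.

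Nodal (chr10:61417972-61425338, plus strand), the ligand, had 4 peaks upstream and 1 downstream. A pair of peaks lay close to its start, a 552 bp peak 1.96 kb upstream (chr10:61415738-61416289) and a 396 bp peak 1.01 kb upstream (chr10:61416762-61417157), separated by 472 bp. Both were intergenic. Further upstream, peaks of 417 bp and 259 bp lay in introns of Pald1 at 42.5 and 35.6 kb, the second of them 0.410 kb from a Pald1 start. The downstream peak, 203 bp wide at 48.8 kb, was nearer to Lrrc20, and 64.5% of its bases were repeat-masked. None of the 5 Nodal peaks held a composite motif or an octamer. The SOX core was present in the peak printed above and in the one at 42.5 kb, and the fewest composite mismatches in any Nodal peak were 4.

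Lefty1 (chr1:180935022-180938400) and Lefty2 (chr1:180893108-180899103), both on the plus strand, encode the Nodal antagonists and lie near each other, so that 3 peaks fell in the windows of both. The first shared peak (chr1:180888631-180889119, 489 bp) was intergenic, 4.23 kb upstream of Lefty2 and 46.1 kb upstream of Lefty1. The second (chr1:180924724-180925061, 338 bp) lay between the genes, 10.1 kb upstream of Lefty1 and 30.4 kb downstream of Lefty2. The third (chr1:180933663-180934081, 419 bp) was 1.15 kb upstream of Lefty1, and it held the composite motif, an octamer and a SOX core, the last overlapping the composite match. Each of the 3 was nearest to a Lefty start among protein-coding starts. No 31-base word of these 3 peaks occurred at another place in the genome. That search finds exact copies only and cannot show that the peaks are unrelated in sequence. The first and second shared peaks do hold a shorter run of bases in common, given under the other observations. The remaining Lefty peaks sat at neighbours. A 234 bp peak 42.1 kb upstream of Lefty2 was 0.127 kb from the start of Sde2, and peaks of 256 and 275 bp lay in introns of Tmem63a, 8.76 and 22.1 kb downstream of a Lefty1 start. The last of these held 2 octamers.

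Tdgf1 (chr9:110939603-110946158, minus strand), the Nodal co-receptor, had its 5 peaks within 19.3 kb upstream of the start. The nearest (chr9:110946428-110946668, 241 bp) was centred 0.390 kb upstream, and it held a KLF site and an ESRRB core. The next (chr9:110947099-110948354) began 430 bp away and was 1256 bp wide, the widest of the 29, with an octamer and a SOX core on opposite sides of its midpoint. The other 3 were in introns of Lrrc2, at 8.75, 14.3 and 19.3 kb. The one at 8.75 kb (chr9:110954781-110955032) carried the composite match, 94.5 bp from its midpoint.

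Acvr2b (chr9:119402118-119434995, plus strand), the type II receptor, had the fewest peaks. Its 2 peaks were 368 and 321 bp wide, lay 26.4 and 44.0 kb upstream in introns of Xylb, and both were nearer to Xylb than to Acvr2b. The nearer one (chr9:119375512-119375879) had no match to any motif searched. The farther one, which also lies within Slc22a14, held an octamer.

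Smad3 (chr9:63646767-63757994, minus strand), the signal transducer, had 1 peak in its body, 3 upstream and 1 downstream. A 378 bp peak (chr9:63741933-63742310) lay in its own intron, 1.14 kb downstream of an internal annotated start, and held an octamer and 2 KLF sites. Upstream, a 346 bp peak at 39.6 kb (chr9:63797383-63797728) held the composite match, at -13.5 bp from its midpoint, and a TCF/LEF core that overlaps the match. A pair of narrow peaks, 222 and 244 bp wide and 169 bp apart, followed at 45.3 and 45.7 kb. A further peak, 216 bp wide, was in an intron of Aagab, beyond the 3′ end of Smad3.

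Smad7 (chr18:75367529-75395935, plus strand), the inhibitory SMAD, and Skil (chr3:31095058-31122577, plus strand), the SMAD repressor, had 3 peaks each. The Smad7 peaks were 559, 449 and 478 bp wide and lay 22.4, 6.50 and 0.689 kb upstream of the start, all nearest to Smad7. The closest (chr18:75366602-75367079) lay in an intron of the gene model Gm20544. None of the 3 had a composite motif, octamer or SOX core, and short SMAD boxes were present in the 2 closest. At Skil, a 271 bp peak (chr3:31095773-31096043) lay in the gene's own intron 0.783 kb downstream of a start and had no match to any motif searched. A 345 bp peak 5.48 kb upstream (chr3:31089404-31089748) held the composite match at -13.0 bp from its midpoint, and 60.6% of its bases were repeat-masked. A 521 bp peak at 40.8 kb, nearer to Prkci, held an octamer, an ESRRB core and a KLF site.

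Motif content over the 29 peaks was set beside all 26704 peaks and beside 52500 windows of the same widths placed 5 kb to either side of the peaks. A composite motif was present in 4 of 29 peaks (13.8%, 95% Wilson interval 5.50 to 30.6%), against 11.5% of all peaks and 1.86% of flanking windows. The octamer ATGCAAAT was present in 6 peaks (20.7%, 9.85 to 38.4%), against 11.0% and 2.44%. The SOX core, CCATTGT or CCTTTGT, was also present in 6 (20.7%), against 30.3% and 13.2%. Each of these 3 intervals contains the share of all peaks. At least one of these motifs was found in 13 of 29 peaks (44.8%) and in 43.7% of all peaks. For the composite motif and the octamer the share of flanking windows lay below the interval, and for the SOX core it lay inside.

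Among motifs of SMAD partners and other ES cell factors, searched without mismatch on both strands, the FOXH1 core (TGTGGATT or TGTGTATT) was in 2 of 29 peaks (6.90%, 1.9 to 22%), against 4.33% of all peaks and 4.46% of flanking windows. The short SMAD box CAGACA was in 11 (37.9%, 22.7 to 56.0%), against 30.8% and 31.6%, and the palindromic SMAD box GTCTAGAC was in 0, against 0.472% of all peaks. An ESRRB core (AAGGTCA) was in 3 peaks (10.3%) against 14.9% of all peaks, a KLF site (CCACACCC) in 4 (13.8%) against 6.35%, and a TCF/LEF core (CTTTGAT) in 1 (3.45%) against 9.05%. These intervals also span the share of all peaks for the FOXH1 core and the short SMAD box.

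**Figure D3:**
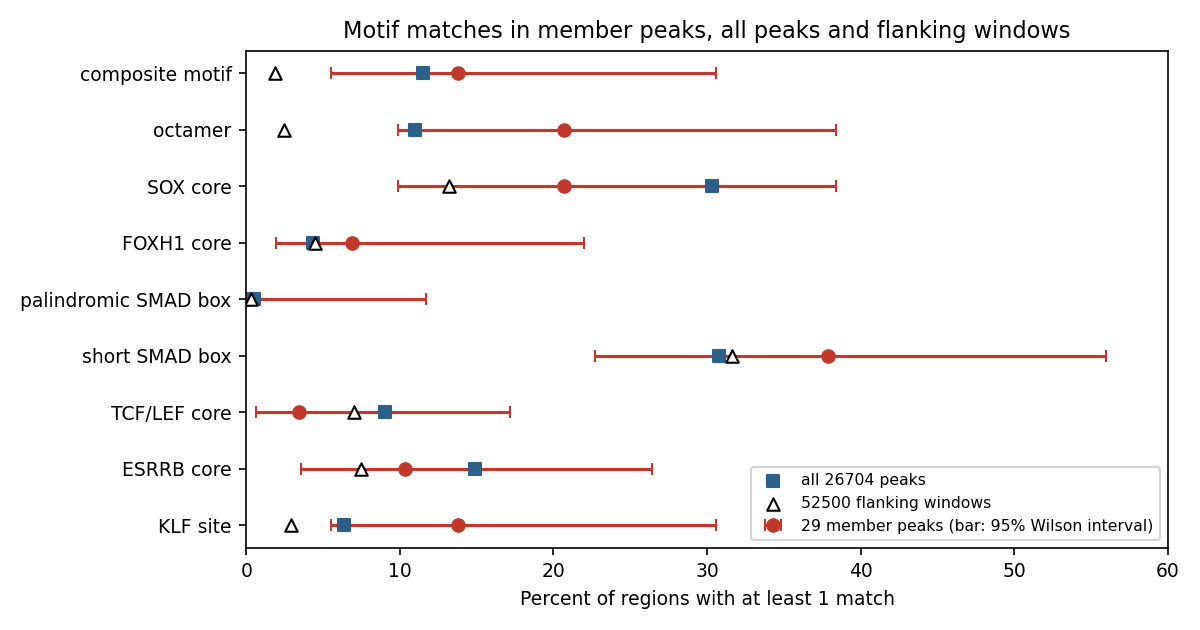
Percent of regions with at least 1 match (x axis) for 9 motifs (y axis), with red points and 95% Wilson intervals for the 29 peaks, blue squares for all 26704 peaks and open triangles for 52500 flanking windows. The intervals of the 29 peaks contain the blue squares in each row.

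The FOXH1 core was found at 2 places in both of the peaks that held it, and both belong to the Lefty genes. In the peak 4.23 kb upstream of Lefty2 the cores lay on the minus strand with starts 83 bp apart, and in the peak 10.1 kb upstream of Lefty1 they lay on the plus strand with starts 63 bp apart. All 4 cores read TGTGGATT, and each peak also held the short SMAD box. A FOXH1 core at 2 or more places occurred in 45 of all peaks (0.169%) and in 0.210% of flanking windows. With the spelling TGTGGATT alone, 9 of all peaks had 2 or more places, and 2 of these 9 were the Lefty peaks. The Lefty peaks share a run of bases between their cores, given under the other observations, so they are not independent occurrences. Neither peak had a composite motif or an octamer, and the second had 2 SOX cores. The sequence match is a description and says nothing of whether FOXH1 was bound.

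**Figure D4:**
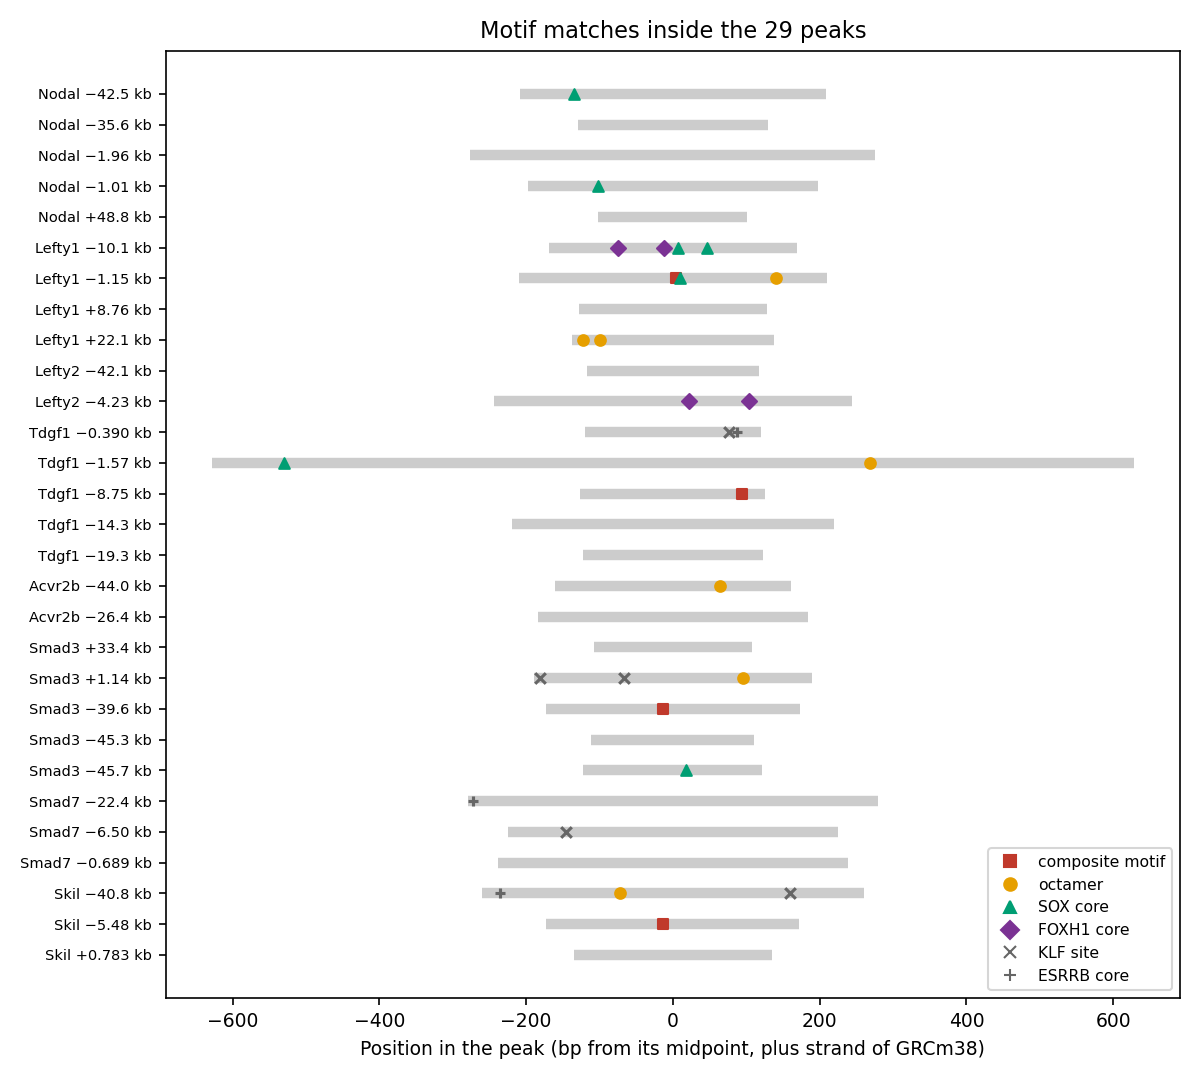
Position of motif matches (x axis, bp from the peak midpoint along the plus strand) in the 29 peaks, with 1 row per peak named by gene and distance to the nearest annotated start of that gene, and grey bars for the extent of each peak. The shared Lefty peaks are drawn once, for the nearer gene, and the pairs of purple diamonds mark the FOXH1 cores upstream of Lefty1 and Lefty2.

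The 29 peaks were also described by width, base content and spacing. Their median width was 345 bp (range 203 to 1256 bp), close to the 352 bp of all peaks. Median GC content was 48.8% against 46.4% for all peaks, and the median repeat-masked share was 9.26% against 13.0%. Another peak lay within 1 kb, edge to edge, of 6 of the 29 peaks (20.7%, 9.85 to 38.4%), against 7.78% of all peaks, a share below the interval. These 6 were the pairs at Nodal, Tdgf1 and Smad3 described above, in which each peak is the neighbour of the other. The 6 are therefore not independent, and the interval, which treats them as such, is too narrow to judge the difference. In 24 of the 29 peaks no 31-base word was repeated elsewhere in the genome, and the highest share of repeated words was 34.1%, in the peak 48.8 kb downstream of Nodal.

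The 8 genes belong to a list of 44 genes of the Nodal, activin and TGF-beta pathway. Of this list, 40 genes had at least 1 peak, and 32 of the 36 genes other than the 8 did, where 73.0% of all protein-coding genes did. The 36 genes had a median of 2.00 peaks, which equals the median of all protein-coding genes. By role, peaks were present at 12 of 13 ligands and antagonists, 9 of 9 receptors and co-receptors, 3 of 4 SMADs, 10 of 10 intracellular regulators, 1 of 2 proprotein convertases and 5 of 6 partners and targets. Tgif1, which encodes a repressor that binds SMAD complexes, had the most with 10 peaks, a number reached by 0.816% of protein-coding genes. Next came Gsc, a homeobox gene and classical Nodal target, and 4 of the 8 genes, all with 5. This order depended on the window. In the gene body or within 10 kb of a start, Tgif1 had 1 peak and Gsc had 2. The highest number in that window was 4, at Tgfbr3 and Zfyve9. The genes without a peak were Dand5, an antagonist, Smad2, Furin, a convertase, and Mixl1, a homeobox target. Smad3 with 5 peaks and Smad2 with 0 encode the pair of receptor-activated SMADs of this pathway. The Smad3 window, 191 kb, is the largest among the 8 genes. In the gene body or within 10 kb of a start, Smad3 had 1 peak and Smad2 had 0. A missing peak cannot be told from a peak under the calling threshold.

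**Figure D5:**
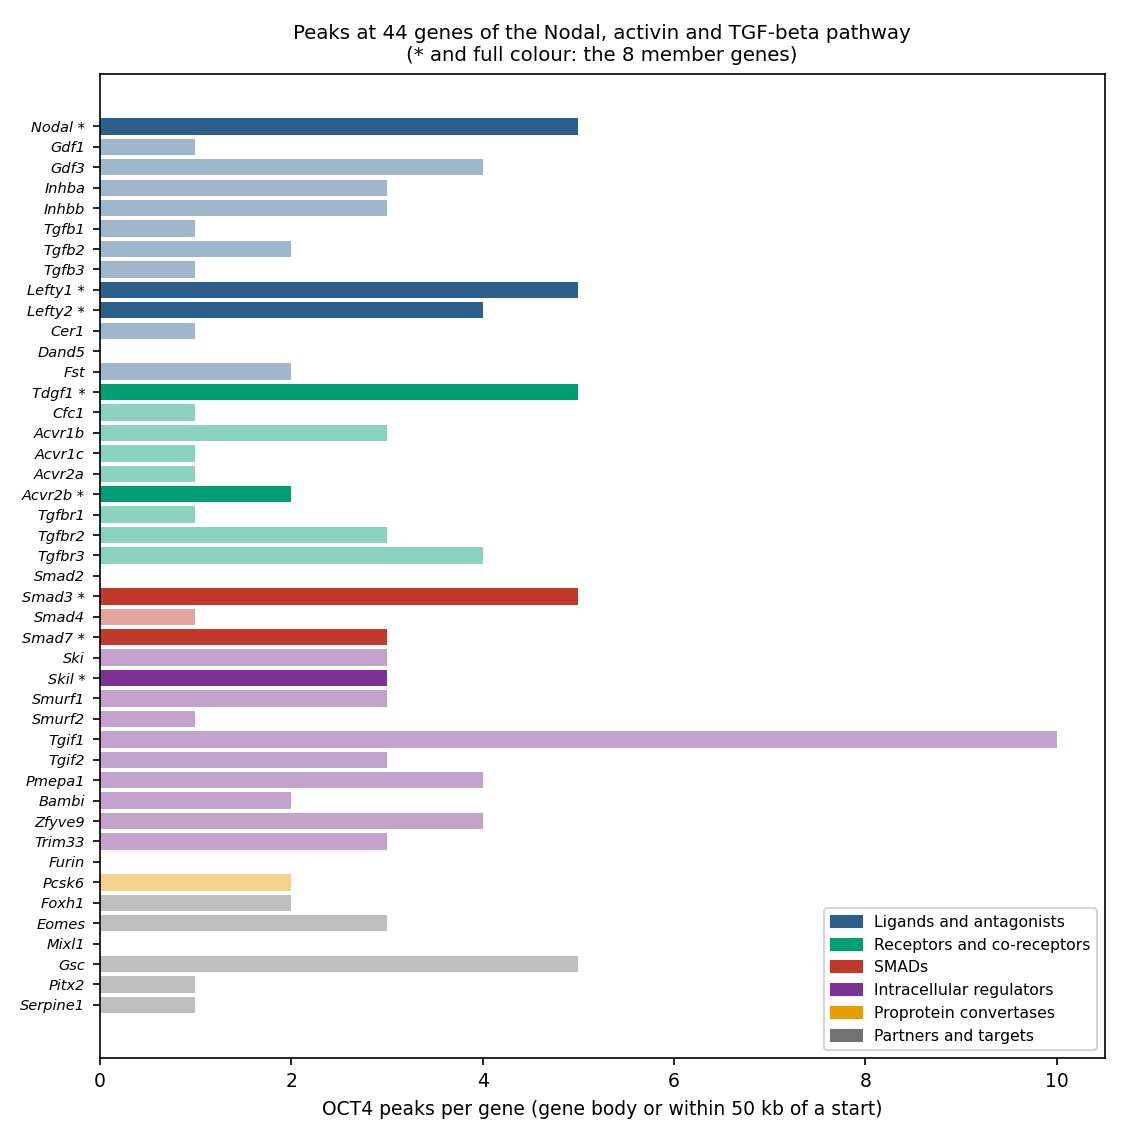
Number of OCT4 peaks in the gene body or within 50 kb of a start (x axis) for 44 pathway genes (y axis), coloured by role, with the 8 genes marked by an asterisk and full colour. Tgif1 reaches 10 peaks, and Dand5, Smad2, Furin and Mixl1 have none.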

How the data were processed

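OCT4 ChIP-seq was performed in 2TS22C mouse ES cells in 2 groups of 2 libraries (SOX2 ON and SOX2 OFF). The authors aligned reads to mm10 with STAR 2.6.1c, removed duplicates with Picard, called peaks with MACS2 2.1.1.20160309 and joined peak files by BEDTools merging. What was deposited are peak coordinates in bp. Which libraries entered the merge, and whether they were pooled before calling, is not given in the sources used here. Merging joins overlapping peaks, so a width is that of a union, and depth is unknown.

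Coordinates are 1-based on GRCm38, with GENCODE M21 genes. Windows, motif matches and the flanking windows (908 of all and 2 of those beside the 29 peaks met a peak or unknown bases and were left out) were computed with Python 3.11.15, NumPy 2.4.6, pysam 0.24.0, samtools 1.23.1 and matplotlib 3.10.9, and the motif search was tested on simulated data. Sequences are from the GRCm38 reference genome. Repeat-masked bases are those in lower case in the reference. Shares have 95% Wilson intervals, and no test was run, because a merged list has no replicates.

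The genes and lists were chosen with earlier results of these data known. By rule the text names all 8 genes, each gene's peak nearest to a start, every peak with a composite motif, the 3 pathway genes with the most peaks (5 genes tied for second place) and those with none. Other windows, mismatches, widths and search regions were tried as alternatives. SOX2 ON against OFF, BRG1 and H3K27ac were not analysed here.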

Additional observations from a re-analysis of the deposited data

How the results depend on the processing

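The 26 values were recomputed under 74 alternatives, of which 33 stayed within the range set for no change and 41 moved, most of them counts or ranks of single genes. The number of peaks was 13 within 10 kb and 17 with peaks of at least 300 bp, both by construction, and 28 to 40 under the other window and overlap settings. It was 16 when only peaks nearest to one of the 8 genes were kept, an alternative chosen after seeing the data. The composite motif was in 0% of the 29 peaks with at most 2 mismatches and in 27.6% with at most 4 (35.9% of all peaks). With 1 mismatch allowed, the octamer was in 62.1% (53.5% of all peaks). Within 2.5 kb of a protein-coding start lay 55.2% of the peaks, against 19.6% of all peaks. The rule itself takes peaks near genes, and several of these starts belonged to neighbours of the 8 genes. The alternatives for the FOXH1 core, the upstream share and the pairs were also chosen after seeing the data. The FOXH1 core was in 65.5% with 1 mismatch allowed (52.2% of all peaks) and in 0% without the 2 Lefty genes, and the upstream share was 90.9% within 10 kb (52.2% for protein-coding genes). Looser motifs match more often by construction, and otherwise the cause was not tested.

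No paired analysis was possible because the merged peaks carry neither library nor replicate, and leaving out a replicate could not be done for the same reason. Depth is unknown, so a gene without a peak is only a gene without a listed peak. With 29 peaks the intervals of most motif shares span more than the difference from all peaks.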

Other observations

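The FOXH1-rich Lefty peaks were compared after their sequences had been seen. A CCAAT box, searched as CCAATCA on both strands, lay between the 2 FOXH1 cores in each peak, on the plus strand at chr1:180888933-180888939 upstream of Lefty2 and at chr1:180924854-180924860 upstream of Lefty1. The FOXH1 cores lie on opposite strands in these peaks, while both CCAAT boxes lie on the plus strand. Relative to the cores the 2 boxes thus face opposite ways, and they were not shown to correspond to each other. Between the cores both peaks also hold the run ttggggaaatacagt, in each peak on the strand of its FOXH1 cores. The 2 sequences are thus alike in part, and the Lefty peaks cannot be taken as independent occurrences of the layout. How the 2 sequences are related was not tested. The box was present in 1439 of all peaks (5.39%) and in 3 of the 29 peaks (10.3%). Together with the FOXH1 core at 2 or more places it was present in 7 of all peaks, 2 of them the Lefty peaks. A peak with a FOXH1 core at 2 places, only one of them spelled TGTGGATT, lay 45.3 kb from the start of Eomes, a T-box gene activated by Nodal. It was picked by gene name from the 45 peaks with the core at 2 or more places. Apart from it and the Lefty peaks, these were nearest to genes outside the pathway list. These matches are descriptions of sequence, and binding of FOXH1 or of a CCAAT-binding factor was not measured.

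Lists of 8 genes of other signalling pathways were counted under the same rule. The medians were 3.00 peaks per gene for BMP genes, 4.00 for WNT genes and 6.50 for FGF genes, with at least 1 peak at 8 of 8 genes in each list (73.0% of all protein-coding genes had one), beside 4.5 for the 8 Nodal, Lefty and TGF-beta genes. The lists differ in gene length and were not matched.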
